A study of Homo sapiens with 6 samples.

Results

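The plasminogen activators, the urokinase receptor, 4 matrix metalloproteinases (MMPs) and 2 of their tissue inhibitors were followed in HaCaT cells after a high dose of X-rays. The 9 genes were PLAU, PLAUR, PLAT, MMP1, MMP3, MMP9, MMP10, TIMP1 and TIMP3. They were chosen by name, out of 22411 genes measured under a single symbol. Each was read by 1 transcript cluster, the array's unit for a gene, so no choice between clusters arose. HaCaT is a spontaneously immortalised human keratinocyte line. The irradiated group held 3 cultures given a single dose of 20 Gy at 1.15 Gy per min, and the mock group held 3 cultures given 0 Gy. The medium was DMEM with serum and antibiotics throughout, and RNA was taken after 48 h. Both groups are numbered 1 to 3 as biological replicates, with 1 array per culture. The labels do not say what arrays with the same number share, and all arrays come from 1 cell line, so p-values measure the spread between these cultures only.

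Urokinase (PLAU) and tissue plasminogen activator (PLAT) are secreted proteases that cut plasminogen into plasmin, a broad protease that degrades fibrin and activates several MMPs. The urokinase receptor (PLAUR) holds urokinase at the cell surface, where migrating keratinocytes use it during wound closure. MMPs are zinc proteases made as inactive precursors, and the TIMP proteins block their active site. In wounded skin, MMP1 cuts fibrillar collagen at the migrating edge, MMP10 is made by the same keratinocytes, and MMP3 is known from keratinocytes further back and from fibroblasts. Transcription of many of these genes is known to depend on AP-1, a dimer of JUN and FOS family proteins.

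RefSeq promoter sequences (build GRCh38.p14) were read for 5 of the 9 genes, and not for PLAT, MMP1, MMP3 or MMP9. MMP10 and PLAUR are shown because both contain TGANTCA (N is any base), a loose form of the AP-1 motif, in capitals. The pattern reads the same on both strands. Each covers the 250 bases before the start site, 5′ to 3′ on the gene's strand, at chr11:102780629-102780878 (minus strand) for MMP10 and chr19:43670170-43670419 (minus strand) for PLAUR.
MMP10: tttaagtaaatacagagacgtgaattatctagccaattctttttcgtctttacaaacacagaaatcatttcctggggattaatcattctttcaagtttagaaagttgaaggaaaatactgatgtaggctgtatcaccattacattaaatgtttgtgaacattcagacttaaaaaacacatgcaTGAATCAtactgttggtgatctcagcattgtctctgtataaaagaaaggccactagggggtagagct
PLAUR: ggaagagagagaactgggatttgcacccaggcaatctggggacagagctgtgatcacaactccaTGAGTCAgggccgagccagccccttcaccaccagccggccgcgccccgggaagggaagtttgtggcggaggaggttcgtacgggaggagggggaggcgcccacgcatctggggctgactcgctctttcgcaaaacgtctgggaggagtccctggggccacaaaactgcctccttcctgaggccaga

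The match is TGAATCA in MMP10, starting at -67, and TGAGTCA in PLAUR, starting at -186, counted from the start site. The windows of PLAU (both of its listed starts), TIMP1 and TIMP3 do not hold the pattern. Of 34788 different promoter windows of 250 bases, 6.59% hold the pattern. A match is a description of the letters only.

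After irradiation 0 of the 7 members tested passed. A limma F-test between numbers, chosen after the values were seen, called 6 of these 7, but also 61% of all genes tested. Of the 6, MMP10 had to be called, as it entered the test through number 3 alone. MMP1 was 19.4-fold higher in the number 3 cultures than in numbers 1 and 2, irradiated and mock alike, and MMP10 was high only there. The comparison with mock was made within numbers, by limma with the number as a block. It ran over the 9324 genes with 1 symbol and a mean above 6.01 (log2 signal), the mean of the brightest of 23 background control sets. It called 467 of them (5.01%), and 0 of the 7 members tested, of which 0 had an unadjusted p under 0.05, against 2692 of all genes tested. The count of calls over all genes was 251, 66 and 140 without pair 1, 2 and 3, and 203, 179 and 269 after quantile normalization, cyclic loess and centring. MMP3 and MMP9 were the 2 members below the limit. Over all 22411 named genes the same test called 0 (0%, with 4905 at unadjusted p under 0.05), and over all 67528 clusters it called 0 (0%, with 10237). Without the block it called 0 of the 9324 (0%, with 312). The limit is soft, since its control set ran from 5.04 to 7.25 over the arrays and the next brightest set averaged 5.53.

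**Figure D1:**
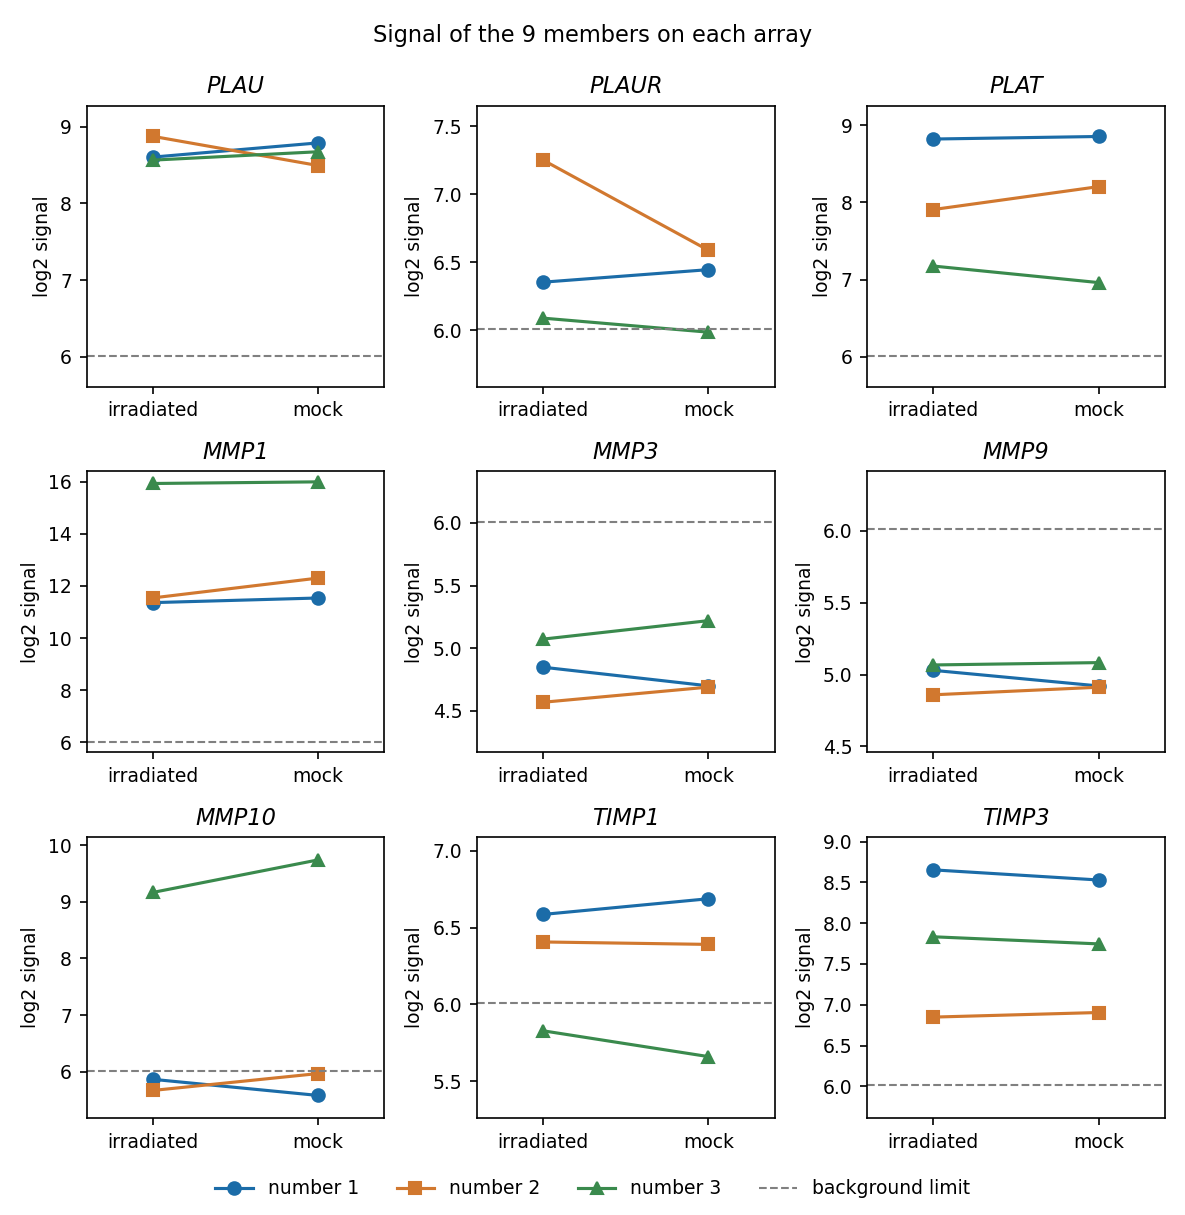
Log2 signal of each of the 9 genes on the 6 arrays, irradiated on the left and mock on the right of each panel, with a line joining arrays of the same number and a dashed line at the background limit of 6.01. Vertical axes differ between panels; lines are nearly flat for most genes, while MMP1 and MMP10 in number 3 lie far above the other numbers.

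Urokinase stayed within a narrow range over the arrays. PLAU had log2 signals of 8.60, 8.88 and 8.56 in irradiated cultures 1, 2 and 3, against 8.79, 8.49 and 8.67 in mock cultures 1, 2 and 3. The groups overlapped, and the irradiated array was the higher one in number 2 and the lower one in numbers 1 and 3. The mean was 8.68 ± 0.17 in irradiated and 8.65 ± 0.15 in mock cultures (SD, n = 3 each). The difference was 0.029 with a 95% interval from -0.26 to 0.32 (0.836-fold to 1.24-fold; limma adjusted p = 0.891). Its direction followed culture 2, and without that pair it was -0.15 (adjusted p = 0.492).

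PLAT lay at 8.82, 7.91 and 7.18 in irradiated cultures 1, 2 and 3, against 8.86, 8.21 and 6.96 in mock cultures. Number 1 was the highest and number 3 the lowest in both groups, and each irradiated value lay close to the mock value of its own number. The difference was -0.039 (interval -0.29 to 0.22, limma adjusted p = 0.834). Its sign turned under quantile normalization (0.039), cyclic loess (0.053) and centring (0.060), and without pair 2 (0.091). The number 1 arrays lay 1.77 log2 units (3.41-fold) above those of number 3.

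PLAUR, the urokinase receptor, had signals of 6.35, 7.25 and 6.09 in irradiated cultures, against 6.45, 6.59 and 5.99 in mock cultures. The irradiated number 2 array was the highest of the 6, and the other irradiated arrays lay among the mock values. The number 3 values lay close to the background limit, the mock one just below it. The group means were 6.57 ± 0.61 in irradiated and 6.34 ± 0.31 in mock cultures (SD, n = 3 each). The difference was 0.22 (interval -0.11 to 0.56, limma adjusted p = 0.329), made up of -0.092, 0.66 and 0.10 in pairs 1, 2 and 3. Without pair 2 it was 0.0056 (adjusted p = 0.986), so the size rested on that pair.

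Among the MMPs, MMP1, the interstitial collagenase, had the lowest adjusted p of the set. MMP1 had 11.36, 11.54 and 15.93 in irradiated cultures 1, 2 and 3, against 11.54, 12.30 and 15.99 in mock cultures. The irradiated array was the lower one in all 3 pairs, by 0.18, 0.76 and 0.063 log2 units, while the number 3 arrays of both groups stood apart. The difference was -0.33 (interval -0.67 to 0.0029, or 0.628-fold to 1.00-fold; limma adjusted p = 0.176). Of all genes tested, 41.9% were lower in all 3 pairs, and their median difference was -0.089. Without pair 2 the MMP1 difference was -0.12 (adjusted p = 0.602), and without pair 3 it was -0.47 (adjusted p = 0.145).

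MMP10, stromelysin-2, had 5.87, 5.67 and 9.16 in irradiated cultures, against 5.59, 5.97 and 9.74 in mock cultures. Only the number 3 arrays lay above the background limit, so the gene entered the test through them alone. In those 2 arrays the irradiated value was 0.57 lower, which has no replicate above the limit. The difference over all pairs was -0.20 (interval -0.57 to 0.18, limma adjusted p = 0.432), and without pair 1, 2 or 3 it was -0.44, -0.14 and -0.0068.

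MMP3, stromelysin-1, ran from 4.57 to 5.07 in irradiated and from 4.69 to 5.22 in mock cultures, below the limit on all 6 arrays. MMP9, a gelatinase, likewise ran from 4.86 to 5.07 in irradiated and from 4.91 to 5.08 in mock cultures. The sizes of their differences are not determined. In the fit over all named genes, which called 0 genes, they had limma adjusted p-values of 0.782 and 0.910.

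Neither inhibitor passed the test after irradiation. TIMP1, which is secreted and blocks most MMPs, had 6.59, 6.41 and 5.83 in irradiated cultures, against 6.69, 6.39 and 5.66 in mock cultures. Its difference was 0.027 (interval -0.16 to 0.21, limma adjusted p = 0.837), and the number 3 arrays of both groups lay below the limit. It was -0.043 without pair 3. TIMP3, which binds to the matrix and also blocks some ADAM proteases, had 8.65, 6.85 and 7.83 in irradiated cultures, against 8.53, 6.91 and 7.75 in mock cultures. Its difference was 0.052 (interval -0.12 to 0.23, limma adjusted p = 0.667). The intervals ran from 0.898-fold to 1.16-fold for TIMP1 and from 0.918-fold to 1.17-fold for TIMP3. The order of the numbers was the same in irradiated and mock cultures for each inhibitor.

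**Figure D2:**
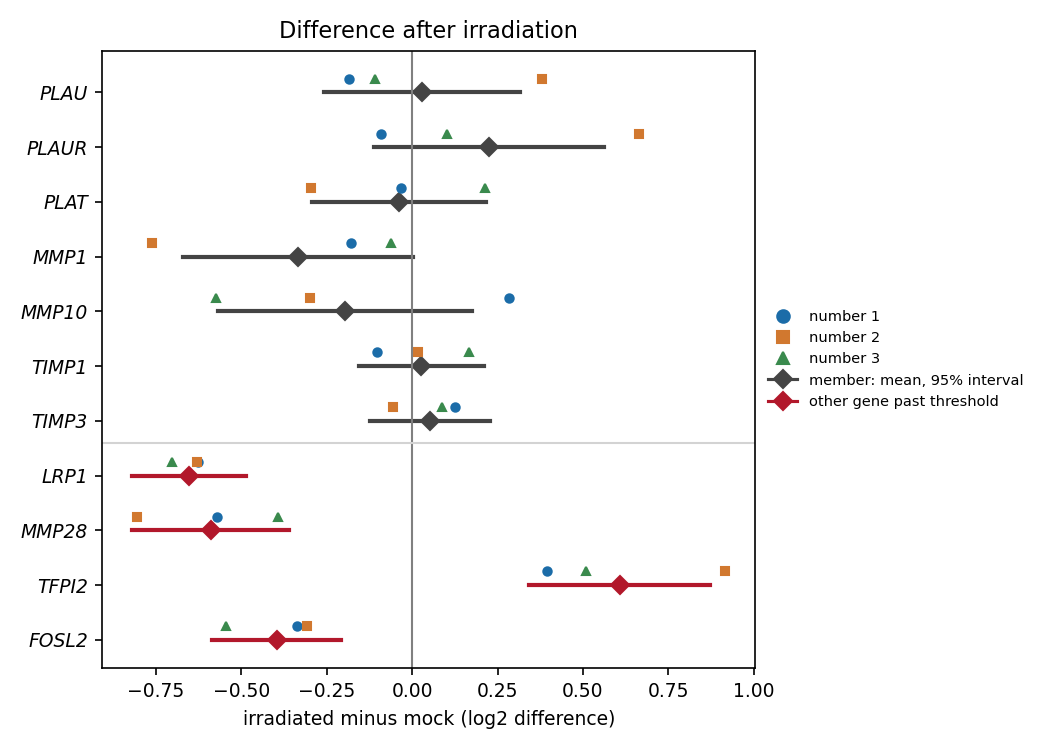
Irradiated minus mock log2 difference for the 7 members tested (grey) and the 4 other genes of the fixed lists past the threshold (red), with diamonds for the mean of 3 pairs, bars for limma's 95% interval and small markers for each pair. All 7 grey bars cross 0, and the 3 pairs of LRP1, MMP28, TFPI2 and FOSL2 each lie on 1 side.

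The levels differed far more between numbers than between groups. The number accounted for 98.8% of the variance of MMP1 over the 6 arrays, 98.6% for MMP10, 99.6% for TIMP3, 97.9% for PLAT, 97.8% for TIMP1 and 77.4% for PLAUR, but for 6.73% for PLAU. Irradiation accounted for 7.45% in PLAUR and for 1.22% or less in the others. A limma F-test between numbers, from the same fit and chosen after the values were seen, called 6 of the 7 members tested, PLAU being the other (adjusted p = 0.867). It also called 61% of all genes tested, so such a call is common here. MMP1 had an adjusted p of 4.96e-05 and a range of 4.51 log2 units between numbers, larger than in 99.9% of the genes tested, and a range of 3 units or more was met by 0.568% of them. MMP10 was in the test only through number 3, so its own call (9.33e-05) had to follow. TIMP1 was above the limit only in numbers 1 and 2, so its call (0.00112) is not free of that choice either. Without number 3, 2 members passed, PLAT (adjusted p = 0.00390) and TIMP3 (2.92e-04), and MMP1 did not (0.0533).

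In number 3, MMP1 averaged 15.96, against 11.68 in numbers 1 and 2. MMP10 averaged 9.45 there, against a measured 5.77 in numbers 1 and 2, where it was not above the limit. With those 4 arrays set to the limit, MMP10 was 10.9-fold higher in number 3, a lower bound only as far as the limit of 6.01 holds. TIMP1 ran the other way, and with its number 3 arrays set to the limit it was 1.42-fold higher in numbers 1 and 2. The limit's control set reached 7.25 on its highest array, above every TIMP1 value, so that size is not determined. TIMP3 was highest in number 1 (8.59) and lowest in number 2 (6.88), so the inhibitors did not share an order.

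MMP1, MMP3 and MMP10 are neighbours in a run of 9 consecutive protein-coding genes on chromosome 11 that are all MMPs. In their order these are MMP7, MMP20, MMP27, MMP8, MMP10, MMP1, MMP3, MMP12 and MMP13, of which 4 had a mean above the limit. MMP13, collagenase-3, had 12.84, 12.37 and 16.04 in irradiated cultures, against 12.19, 13.88 and 16.09 in mock cultures. MMP12, the macrophage elastase, had 8.55, 5.59 and 9.22 in irradiated cultures, against 8.65, 6.37 and 9.32 in mock cultures. Both were highest in number 3 in both groups, but MMP12 was also high in number 1. MMP12 (-0.32, adjusted p = 0.191) and MMP13 (-0.30, adjusted p = 0.605) did not pass the limma test after irradiation. The 5 dim genes of the run stayed below the limit on every array. MMP3 and MMP10 are close paralogs whose probes could share signal, which was not tested. MMP3 was also highest in number 3 in both groups, by 0.44 over the other arrays, while below the limit on all of them. MMP12 and MMP13 were singled out for their place beside the members after their values were seen.

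**Figure D3:**
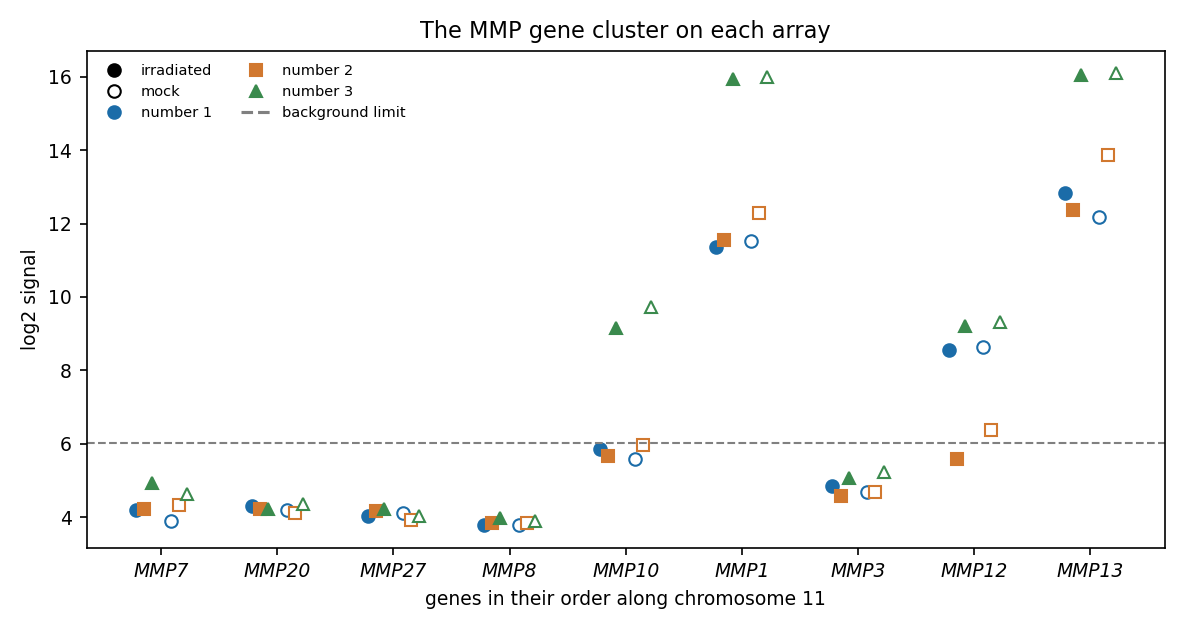
Log2 signal of the 9 MMP genes of the chromosome 11 cluster in gene order, filled symbols for irradiated and open symbols for mock cultures, with shape and colour for the number and a dashed line at 6.01. MMP10, MMP1, MMP12 and MMP13 have means above the line, with number 3 (green triangles) highest in each, and the other 5 stay below it.

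The genes nearest to MMP1 and MMP10 over the 6 arrays were sought by the root mean square distance between values centred per gene, a measure chosen after the values were seen. SCGB1A1, a secretoglobin, was the nearest to MMP1 (0.16 log2 units), followed by the FABP5 pseudogenes FABP5P1 (0.35) and FABP5P7 (0.37), which may share probe signal with FABP5. ALDH1A1, a retinaldehyde dehydrogenase (0.31), SCGB1A1 (0.31) and FABP5P1 (0.35) were the nearest to MMP10. ALDH1A1, like MMP10, lay below the limit on every array of numbers 1 and 2 (4.87 to 5.51). Both thus entered through number 3 alone, and their closeness elsewhere is between values at background. SCGB1A1 had 8.30, 8.27 and 12.60 in irradiated cultures, against 8.33, 8.74 and 12.59 in mock cultures. The likeness rests on the height of the number 3 arrays.

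Keratinocyte markers were bright in all cultures, with 6 of 6 measured genes above the limit and list means of 14.15 to 14.85 in irradiated and 14.37 to 14.84 in mock cultures. The list means in number 3 were 14.85 in the irradiated and 14.84 in the mock culture, the highest of each group. The markers did not share this order. Averaged per number, KRT5, KRT14 and DSG3 were highest in number 3. CDH1 (12.74) and KRT18 (11.30) were lowest there, and KRT8 (13.35) was below number 2 (13.41). Fibroblast markers, of a cell type that makes much MMP1 and MMP3, were at background, with 0 of 6 above the limit and means of 4.37 to 4.47 in irradiated and 4.24 to 4.42 in mock cultures. Number 3 had 4.44 in the irradiated culture, between the other irradiated values, and 4.42 in the mock culture, the highest of the mock values. Of 20 measured markers of fibroblasts, leukocytes, endothelium and melanocytes, 1 was above the limit, CD68, a lysosomal protein. CD68 rose by 0.44 (limma adjusted p = 0.0329), a change whose part in the results was not tested, and the other 5 measured leukocyte markers lay below the limit. The leukocyte list averaged 4.99 to 5.07 in irradiated and 4.78 to 4.88 in mock cultures. PTPRC, which defines leukocytes, ran from 3.99 to 4.18 in irradiated and 3.81 to 4.01 in mock cultures. PTPRC, CSF1R, TYROBP and AIF1 were each higher in 3 of 3 pairs while CD14 was lower in 3 of 3. Such runs below the limit were not particular to leukocyte markers. The fibroblast markers COL1A2, LUM, PDGFRB and FAP were also higher in 3 of 3 pairs, and COL1A1 and DCN in 2 of 3. In such bulk RNA, fewer cells of a kind and less RNA per cell cannot be told apart.

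Of 62 further genes of the system in 5 lists (plasminogen receptors and inhibitors, the other MMPs, other MMP inhibitors, TIMP3-inhibited proteases, and AP-1 and ETS factors), 57 were measured and 23 lay above the limit. Of these 23, 4 passed (17.4%, against 5.01% of all genes tested), 1 higher (1.3% of all genes tested) and 3 lower (3.71%), with a median difference of -0.055 against -0.089 for all genes tested. Over all 22411 named genes, and without the block, 0 of the 4 passed, but both fits called 0 of all genes.

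LRP1 fell, the endocytic receptor that clears urokinase bound to its inhibitors and also several MMPs. It was the 1 call among 6 tested genes of the plasminogen list. LRP1 had 8.60, 7.85 and 8.67 in irradiated cultures, against 9.22, 8.49 and 9.38 in mock cultures. Every irradiated value lay 0.63 to 0.70 below its own mock value, although the groups overlapped across numbers. The difference was -0.65 (interval -0.82 to -0.49, limma adjusted p = 0.0163, and 0.0759 over all named genes). The other 5 did not pass, among them the surface partners that bind plasminogen, ANXA2 (-0.025) and S100A10 (0.042).

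MMP28, epilysin, an MMP known from keratinocytes, was the 1 call among 6 other MMPs tested. MMP28 had 8.75, 7.54 and 8.81 in irradiated cultures, against 9.32, 8.35 and 9.20 in mock cultures. It fell by 0.59 (interval -0.82 to -0.36, limma adjusted p = 0.0316), lower in 3 of 3 pairs, as were 41.9% of all genes tested. The call was lost after quantile normalization (adjusted p = 0.0560), after cyclic loess (0.0612) and without pair 1 (0.0534) or pair 2 (0.0961). MMP15, with a mean of 6.05 near the limit, lay at -0.28 (limma adjusted p = 0.0547). It was also lower in 3 of 3 pairs, as was MMP12. MMP14, the membrane-bound activator of MMP2, lay at -0.20 (adjusted p = 0.221) and MMP2 at 0.015 (0.940).

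TFPI2, a secreted Kunitz-type inhibitor of plasmin, was the call that rose. TFPI2 had 8.25, 9.13 and 6.15 in irradiated cultures, against 7.85, 8.21 and 5.64 in mock cultures. It was higher by 0.61 (interval 0.34 to 0.87, limma adjusted p = 0.0367) and in 3 of 3 pairs, with 0.40, 0.92 and 0.51. The number 3 mock value lay below the limit, so the size of that pair's difference is not determined. The call was lost without pair 2 (0.45, adjusted p = 0.0896) and without pair 3 (0.66, 0.0803). BSG, a surface inducer of MMPs and the other tested gene of that list, lay at -0.055 (adjusted p = 0.662).

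FOSL2, the AP-1 subunit Fra-2, was the 1 call among 6 AP-1 and ETS factors tested. FOSL2 had 8.06, 7.62 and 7.997 in irradiated cultures, against 8.40, 7.92 and 8.54 in mock cultures. It fell by 0.40 (interval -0.59 to -0.21, limma adjusted p = 0.0448) and was lower in 3 of 3 pairs. Under quantile normalization, cyclic loess and centring its adjusted p was 0.104, 0.105 and 0.107, and without 1 pair it was 0.0672 to 0.124. FOSL1 and JUN, other AP-1 genes often tied to MMP1, had means below the limit, so the sizes of their differences are not determined. Their measured differences were 0.35 and 0.39, higher in 3 of 3 pairs each. JUND, whose mean was also below the limit, went the other way, at -0.44 and lower in 3 of 3 pairs. The fit over all named genes called 0 of 22411 genes, so it could not set FOSL1, JUN and JUND apart. Their limma adjusted p there was 0.121, 0.147 and 0.177 (unadjusted 0.0052, 0.012 and 0.023, with 4905 genes under 0.05). Among all genes tested, which lie above the limit, 927 of 9324 were higher in all 3 pairs and 41.9% were lower. Of the TIMP3-inhibited proteases 0 of 3 tested passed (0 at unadjusted p under 0.05), with ADAM10 at -0.050 and ADAM17, which sheds growth factors and cytokines, at -0.13 (adjusted p = 0.704 and 0.262).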

How the data were processed

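Total RNA of 6 HaCaT cultures was amplified and labelled with biotin for 6 arrays. The authors deposited gene-level log2 signals made with RMA (background correction, quantile normalization, summarisation), per the submitters' processing notes. The RMA version is not given in the sources used here. An exon-level table was not used. Deposited log2 values were taken without rescaling, and array medians ran from 4.53 to 4.66. Genes were named from clusters with 1 platform symbol (23781, with 1543 more holding several), updated through gene tables. The test was limma's, version 3.58.1 under R 4.3.3 (lmFit, eBayes with a variance trend, two-sided, Benjamini-Hochberg over all genes tested, threshold 0.05), after a test on simulated data. The number was used as a block, since the arrays' departures from their group mean had correlations of 0.852, 0.906 and 0.923 for equal numbers and of -0.71 to 0.032 for unequal ones. Members, lists and tests were chosen with earlier results of these data known, the restriction to bright genes after wider tests had called 0. Named beside the members are genes of the lists that passed, otherwise the 2 brightest, and the measured keratinocyte and fibroblast markers. Chosen after their values were seen were ANXA2, S100A10, MMP2, MMP12, MMP13, MMP14, MMP15, BSG, FOSL1, JUN, JUND, PTPRC, CSF1R, TYROBP, AIF1, CD14 and CD68. Another gene of the system is not reported here. Alternatives covered the block, scaling, the genes tested, the variance trend and each pair.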

Additional observations from a re-analysis of the deposited data

How the results depend on the processing

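None of the members passed under any of the 11 alternatives (no replicate block, quantile normalization, cyclic loess, centring on the genes tested, all named genes, all clusters, a limit 1 log2 unit higher, no variance trend, each pair left out). Not all of these could have called a member. The fits without the block, over all named genes and over all clusters called 0 of all genes. With the higher limit PLAUR, MMP10 and TIMP1 were no longer tested. The replicate block left every member's difference as it was, and without it the lowest adjusted p among members was 1.00. Of the other genes of the system 4 passed, and 0 without the block, 0 over all named genes, 0 over all clusters, 2 after quantile normalization, 2 after cyclic loess and 1 to 2 with a pair left out. LRP1 stayed past the threshold under each scaling and without each pair (adjusted p 0.0199 to 0.0466). Signs turned for PLAU without a pair (-0.15 to 0.14), for PLAT after quantile normalization (0.039), cyclic loess (0.053) and centring (0.060) and without a pair (-0.17 to 0.091), and for TIMP1 without a pair (-0.043 to 0.092). These lay within their intervals, and the cause was not tested. Signs also turned for MMP3 (-0.13 to 0.059 over the alternatives) and MMP9 (-0.049 to 0.11), which lay below the limit on every array and have no interval. Members differing between numbers were 2 to 6 with a number left out, the 2 being without number 3, and 5 to 7 otherwise. Over all genes, increases made up 25.9% of calls on deposited values, 58.6% after quantile normalization, 64.8% after cyclic loess and 66.9% after centring. Members had 1 cluster each, so other clusters could not be tried. The number of arrays and, for PLAUR, MMP3, MMP9, MMP10 and TIMP1, signal over background limit the precision.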
